A study of Mus musculus with 6 samples.

Results

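Elastic fibres give the aortic wall its recoil, and 10 genes that build them were followed across the 3 groups of mice: Eln, Fbn1, Fbln1, Fbln2, Fbln5, Mfap2, Mfap4, Emilin1, Lox and Loxl1. The probe sets were taken by symbol from the annotation of the array, a probe set being a group of short array probes that report on 1 transcript. Of the 45101 probe sets of the array, 19 carried 1 of these symbols, and they stood for 9 of the 10 genes. No probe set carried the symbol Fbn1 in this annotation, so fibrillin-1 was not analysed here. The 6 arrays came from vitamin E-treated ApoE-/- mice, untreated ApoE-/- mice with atherosclerosis and non-transgenic B6 (C57BL/6J) mice, all on the B6 background, with 2 arrays for each and a pool of 3 aortas on every array. The animals were 32 to 34 weeks old and were all fed the same type of rodent chow, and vitamin E (tocopherol acetate) was added to the diet at 2000 IU per kg for 7 months. Aortas of these groups are called vitamin E, untreated ApoE-/- and B6 aortas in what follows. Apolipoprotein E is absent from every cell of ApoE-/- mice, so the comparison with B6 aortas is one of genotype, raised blood cholesterol and lesions together. Because of the pooling, variation between individual mice is not seen in these values.

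An elastic fibre has a core of cross-linked elastin on a scaffold of microfibrils. Tropoelastin, the soluble product of Eln, is secreted mainly by smooth muscle cells of the aortic media. Fibulins and emilins help to place it on the microfibrils, and lysyl oxidases then join its lysine residues into a polymer that turns over very slowly. In atherosclerotic arteries, elastic laminae can be fragmented by proteases of macrophages, and smooth muscle cells can resume matrix synthesis.

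The signal intensity of Apoe was 40.5 and 45.3 in vitamin E, 93.2 and 57.4 in untreated ApoE-/-, and 5209 and 5432 in B6 aortas. Signal intensities are linear and had been scaled per array by the authors. They were compared as log2 values after signals under 20 had been set to 20, with limma, on all 6 arrays and 17909 probe sets with a group mean of 100 or more in any group. An adjusted p under 0.05 (Benjamini-Hochberg) is termed a call, higher or lower. Of the 19 elastic fibre probe sets 11 were tested, at least 1 for each of the 9 genes, and a gene was represented by its probe set with the highest mean. The mean signal ranged from 305 to 319 across arrays. A poly-A control that monitors labelling, dap, had a signal of 1192 and 1203 in vitamin E, 978 and 918 in untreated ApoE-/-, and 3203 and 3179 in B6 aortas, so a labelling batch cannot be told apart from genotype. The ratio of 3' to 5' signal of Gapdh, a measure of RNA integrity, was 1.146 and 1.24 in vitamin E, 1.03 and 1.06 in untreated ApoE-/-, and 1.35 and 1.34 in B6 aortas, and its part in the results was not tested. With 2 arrays per group, the smallest two-sided p of an exact permutation test is 0.333, so the adjusted p values draw on the variance that limma pools over probe sets.

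Untreated ApoE-/- aortas had higher signal intensities than B6 aortas for elastin (Eln), fibulin-1 (Fbln1), microfibril-associated protein 4 (Mfap4) and lysyl oxidase (Lox), which is 4 of the 9 genes tested, while the other 5 were not called. In whole aortas, fewer cells of a type and less RNA per cell cannot be told apart. Over all 10650 genes tested, 21.1% were called higher, 20.8% lower and 41.9% in either direction. In vitamin E versus untreated ApoE-/- aortas 5 of the 9 genes were lower, namely Eln, Fbln1, Mfap4, Fbln2 and Loxl1, where 8.18% of all genes were called higher, 7.64% lower and 15.8% in either direction. In vitamin E versus B6 aortas, Eln, Fbln1 and Mfap4 were higher and Fbln2, Fbln5 and Loxl1 were lower, 6 of 9 genes, where 21.1% of all genes were called higher, 21.7% lower and 42.8% in either direction. The median log2 difference of the 9 genes was 0.31 in untreated ApoE-/- versus B6 aortas, −0.41 in vitamin E versus untreated ApoE-/- aortas and 0.20 in vitamin E versus B6 aortas. Over all genes tested, it was 0.016, −2.6e-05 and −0.0017 in the same comparisons. The first and second of these comparisons share the untreated ApoE-/- arrays, so a high value on those arrays would move both. Groups of 2 arrays often do not overlap, as was so for 76.8%, 58.9% and 71.5% of all probe sets tested in the same order of comparisons. Each probe set was also refitted with limma under up to 17 other settings, and calls are described as held or lost over these refits. The methods' t-test, run on each probe set by itself, called 2, 0 and 0 of the 9 genes in these comparisons after Benjamini-Hochberg adjustment, and 1 (Fbln1), 0 and 0 at the thresholds of the methods, so no call of these genes in vitamin E aortas held under that test.

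**Figure D1:**
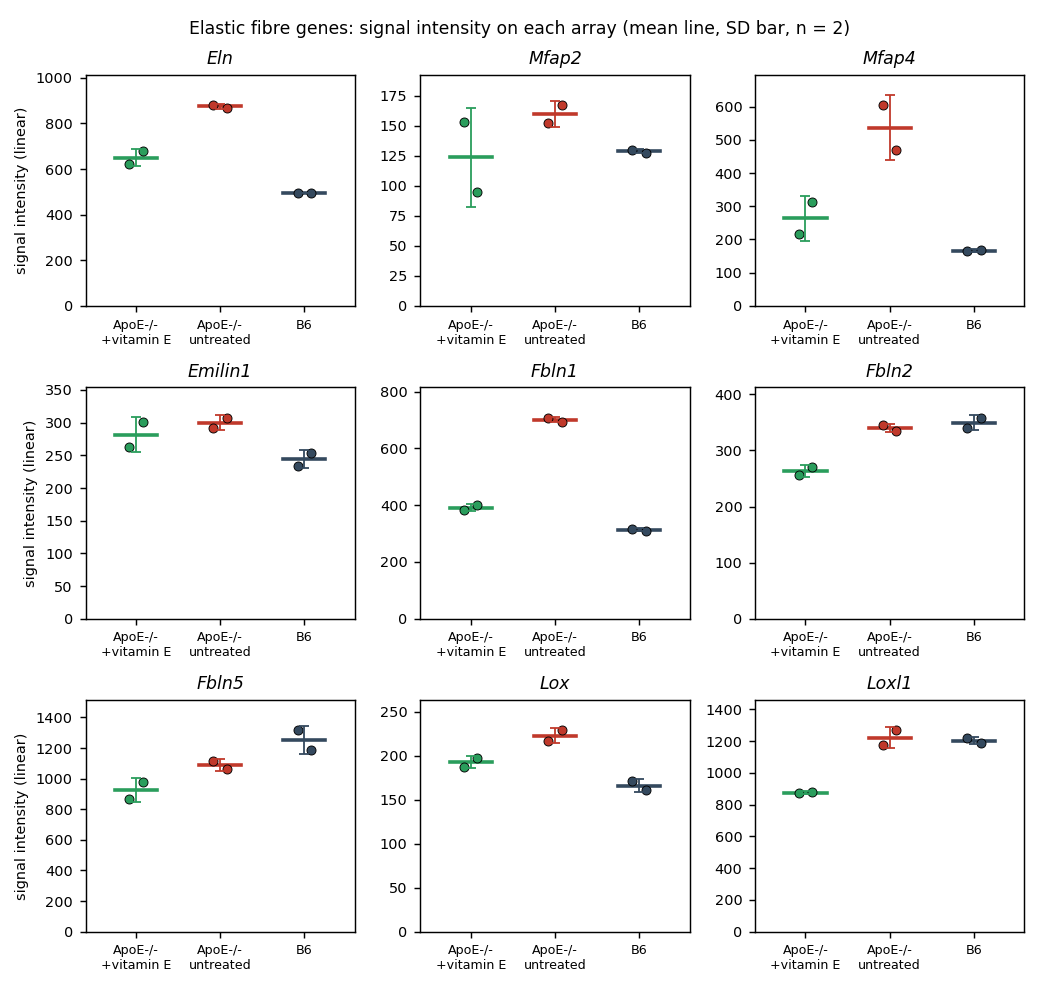
Signal intensity (linear, y axis from 0) of the strongest probe set of each elastic fibre gene on the 2 arrays of vitamin E, untreated ApoE-/- and B6 aortas. Points are arrays, lines are group means and bars are SDs (n = 2). Eln, Fbln1, Mfap4 and Lox have 3 separate levels, highest in untreated ApoE-/- aortas, although for Lox only the difference from B6 aortas was called. The vitamin E arrays of Fbln2 and Loxl1 lie under both other groups.

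Elastin is the polymer that makes up the core of the fibre. The stronger of its probe sets, 1420855_at, had a signal intensity of 623 and 677 in vitamin E, 882 and 867 in untreated ApoE-/-, and 495 and 495 in B6 aortas. The groups did not overlap, with untreated ApoE-/- aortas at the top and B6 aortas at the bottom. Eln was 1.77-fold higher in untreated ApoE-/- aortas than in B6 (log2 difference 0.82, SE 0.07, adjusted p = 0.00015 from limma), and this call held in all 17 limma refits. It was 1.35-fold lower in vitamin E than in untreated ApoE-/- aortas (log2 difference −0.43, SE 0.07, adjusted p = 0.0092), but 1.31-fold higher than in B6 aortas (adjusted p = 0.0044). The vitamin E call was lost when either untreated ApoE-/- array was left out (adjusted p = 0.072 and 0.067) and without the filter on dim probe sets (adjusted p = 0.052).

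A further Eln probe set, 1420854_at, was dim. It had a signal intensity of 86.2 and 83.4 in vitamin E and 105 and 121 in untreated ApoE-/- aortas, against 8.38 and 20.6 in B6 aortas. This probe set was near the floor of 20 in B6 aortas and well above it on the 4 ApoE-/- arrays. It passed the filter only through the untreated ApoE-/- mean of 113, so its test rests on the group where it is high. The floor raised 1 B6 array to 20, which narrowed the B6 spread behind the p values. With these limits, it was called higher in untreated ApoE-/- aortas than in B6 (log2 difference 2.47, adjusted p = 8.5e-05). It was also called higher in vitamin E than in B6 aortas (log2 difference 2.06, adjusted p = 0.00022). Between vitamin E and untreated ApoE-/- aortas, the log2 difference of −0.41 of this dim probe set did not pass (adjusted p = 0.18). The size against B6 depends on the floor, since the log2 difference of untreated ApoE-/- versus B6 aortas was 1.17 with a floor of 50 and 3.10 with none. With the mean log2 signal of both probe sets as the value of the gene, Eln had a log2 difference of 1.65 in untreated ApoE-/- versus B6 aortas and of 1.23 in vitamin E versus B6 aortas, and its call in vitamin E versus untreated ApoE-/- aortas was kept (log2 difference −0.42, adjusted p = 0.023).

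Of the 3 genes for proteins of the microfibril and its surface, Mfap4 was the only one called. Mfap4, a fibrinogen-domain protein that binds tropoelastin and microfibrils, had a signal intensity of 215 and 312 in vitamin E, 605 and 468 in untreated ApoE-/-, and 164 and 169 in B6 aortas. The 3 groups did not overlap, although the arrays of each ApoE-/- group lay far apart. Mfap4 was 3.2-fold higher in untreated ApoE-/- aortas than in B6 (log2 difference 1.68, SE 0.19, adjusted p = 0.00052). Its log2 difference was −1.04 in vitamin E versus untreated ApoE-/- aortas (SE 0.19, adjusted p = 0.013) and 0.64 in vitamin E versus B6 aortas (adjusted p = 0.031). The first call held in all 17 limma refits, but Mfap4 did not pass the methods' t-test at their thresholds. The second was lost without replicate 1 of the untreated ApoE-/- arrays (log2 difference −0.85, adjusted p = 0.086) and without the filter (adjusted p = 0.17), and the third was lost in 6 refits, among them quantile normalization (adjusted p = 0.056), with a log2 difference of 0.37 without replicate 2 of the vitamin E arrays.

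Mfap2, a small glycoprotein of microfibrils also known as MAGP-1, was not called in any of the 3 comparisons. It had a signal intensity of 153 and 94.6 in vitamin E, 152 and 168 in untreated ApoE-/-, and 130 and 128 in B6 aortas. The vitamin E arrays spanned the values of B6 aortas. The 95% interval of its log2 difference in untreated ApoE-/- versus B6 aortas reached from −0.21 to 0.83, which includes the log2 difference of Eln. Without replicate 1 of the vitamin E arrays, Mfap2 was called lower in vitamin E than in untreated ApoE-/- aortas (log2 difference −0.76, adjusted p = 0.021), whereas its log2 difference was −0.06 without replicate 2.

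Emilin1 encodes a glycoprotein at the interface between elastin and microfibrils, and its probe sets disagreed in size. The stronger one, 1416414_at, had a signal intensity of 263 and 300 in vitamin E, 292 and 308 in untreated ApoE-/-, and 234 and 254 in B6 aortas. The log2 difference was 0.30 in untreated ApoE-/- versus B6 aortas (adjusted p = 0.061), and it passed in a fit of only these groups (adjusted p = 0.037). The weaker one, 1431834_a_at, had a signal intensity of 67.2 and 81.4 in vitamin E and 91.9 and 97.0 in untreated ApoE-/- aortas, against 21.5 and 20.3 in B6 aortas. All of its group means were under 100, so it was not tested. In a fit of all 45037 probe sets without the filter, its log2 difference was 2.17 in untreated ApoE-/- versus B6 aortas (adjusted p = 0.012) and 1.82 in vitamin E versus B6 aortas (adjusted p = 0.017). Both B6 signals lay just above the floor of 20, so these sizes and the B6 spread rest on values near the floor. Which parts of the transcript these probe sets detect was not examined.

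The 3 fibulins had different patterns. Fibulin-1 is a basement membrane and elastic fibre glycoprotein that binds elastin, fibulin-2 binds both fibrillin and elastin, and fibulin-5 brings tropoelastin and lysyl oxidase-like 1 together and is required for elastic fibre assembly in mice. Fbln1 had a signal intensity of 384 and 400 in vitamin E, 708 and 694 in untreated ApoE-/-, and 317 and 309 in B6 aortas with probe set 1422540_at. The untreated ApoE-/- arrays stood well apart from the other 4. Fbln1 was 2.24-fold higher in untreated ApoE-/- aortas than in B6 (log2 difference 1.16, SE 0.07, adjusted p = 4.0e-05) and 1.79-fold lower in vitamin E than in untreated ApoE-/- aortas (log2 difference −0.84, SE 0.07, adjusted p = 0.00065). Both calls held in all 17 limma refits. The second probe set of Fbln1, 1451119_a_at, gave log2 differences of 1.0 and −0.69 in the same comparisons (adjusted p = 9.7e-05 and 0.0019), which also held in all 15 refits that give values for it. In vitamin E versus B6 aortas, Fbln1 was 1.25-fold higher (adjusted p = 0.012), a call that was lost without replicate 1 or 2 of the B6 arrays (adjusted p = 0.053 and 0.071).

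Fbln2 had a signal intensity of 256 and 270 in vitamin E, 345 and 335 in untreated ApoE-/-, and 339 and 358 in B6 aortas. The untreated ApoE-/- and B6 arrays overlapped, with a 95% interval of the log2 difference from −0.24 to 0.17. In vitamin E aortas Fbln2 was 1.29-fold lower than in untreated ApoE-/- (adjusted p = 0.032) and 1.33-fold lower than in B6 aortas (adjusted p = 0.0094). The first of these calls was lost in 8 of 17 refits, the replicate block among them (adjusted p = 0.053), and its highest adjusted p was 0.16, without replicate 1 of the untreated ApoE-/- arrays. The second was lost without replicate 2 of the B6 arrays (adjusted p = 0.071).

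Fbln5 had a signal intensity of 868 and 981 in vitamin E, 1116 and 1061 in untreated ApoE-/-, and 1315 and 1186 in B6 aortas. B6 aortas were at the top and vitamin E aortas at the bottom without overlap, and neighbouring groups did not pass the test (adjusted p = 0.10 for untreated ApoE-/- versus B6 aortas and 0.11 for vitamin E versus untreated ApoE-/- aortas). The extremes differed, with a 1.35-fold lower signal intensity in vitamin E than in B6 aortas (log2 difference −0.44, SE 0.09, adjusted p = 0.0060). This call was lost without replicate 1 of the B6 arrays (adjusted p = 0.055) and without the filter (adjusted p = 0.077).

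The 250 bases before the transcription starts of these 3 fibulins are shown, and their part in the patterns was not tested. The sequences are from RefSeq (build GRCm38.p6), run 5′ to 3′ and end at the base before the start furthest upstream, and capitals mark matches on either strand to CAGAC (part of the Smad-binding element), to the E-box CACGTG, or to the GC box GGGCGG.
Fbln1, chr15:85205699-85205948, plus strand: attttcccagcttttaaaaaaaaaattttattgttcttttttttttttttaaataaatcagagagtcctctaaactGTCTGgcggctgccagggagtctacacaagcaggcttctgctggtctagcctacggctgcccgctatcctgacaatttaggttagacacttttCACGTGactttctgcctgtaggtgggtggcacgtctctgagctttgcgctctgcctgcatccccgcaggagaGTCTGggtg
Fbln2, chr6:91212514-91212763, plus strand: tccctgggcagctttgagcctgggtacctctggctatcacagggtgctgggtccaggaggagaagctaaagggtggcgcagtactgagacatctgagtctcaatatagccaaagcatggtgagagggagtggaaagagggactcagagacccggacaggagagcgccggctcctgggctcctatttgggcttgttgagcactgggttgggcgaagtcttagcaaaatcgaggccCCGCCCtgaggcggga
Fbln5, chr12:101819120-101819369, minus strand: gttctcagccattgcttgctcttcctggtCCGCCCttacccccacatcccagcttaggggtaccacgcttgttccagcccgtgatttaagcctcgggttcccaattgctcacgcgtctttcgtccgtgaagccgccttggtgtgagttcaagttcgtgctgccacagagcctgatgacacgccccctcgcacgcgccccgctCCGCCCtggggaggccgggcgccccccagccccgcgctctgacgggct
The Fbln1 window held 2 matches to CAGAC and 1 to CACGTG, and it was poorer in G and C (46.4%) than those of Fbln2 (58.8%) and Fbln5 (65.2%), with a median of 52.4% over 32851 RefSeq promoters. The Fbln2 window held 1 match to GGGCGG and the Fbln5 window 2. Matches overlapped each other in none of these windows, and 42.2% of all promoters held CAGAC, 6.02% CACGTG and 32.7% GGGCGG in the same length. The AP-1 motif TGANTCA, held by 6.75% of all promoters, had no match in these 3 windows. Neither had the TATA box in the form TATAAA (12.4% of all promoters) nor the CArG box, the element bound by serum response factor (1.47% of all promoters). The windows of Emilin1 and Mfap2, not shown, held 2 and 1 matches to CAGAC. All of these are descriptions of sequence, and binding was not measured.

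Lox and Loxl1 encode enzymes that cross-link elastin. Lox, which also cross-links collagen, had a signal intensity of 188 and 198 in vitamin E, 217 and 229 in untreated ApoE-/-, and 172 and 161 in B6 aortas. The 3 groups did not overlap, with vitamin E aortas in the middle. Lox was 1.34-fold higher in untreated ApoE-/- aortas than in B6 (log2 difference 0.42, SE 0.11, adjusted p = 0.020), and the call was lost when any 1 of these 4 arrays was left out (adjusted p from 0.063 to 0.11). The vitamin E aortas did not pass against untreated ApoE-/- aortas (log2 difference −0.21, 95% interval −0.47 to 0.05, adjusted p = 0.24) or B6 aortas (log2 difference 0.21, 95% interval −0.05 to 0.47, adjusted p = 0.16).

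Loxl1, the lysyl oxidase that is tethered to elastic fibres by fibulin-5, had a signal intensity of 870 and 881 in vitamin E, 1175 and 1267 in untreated ApoE-/-, and 1220 and 1187 in B6 aortas. The untreated ApoE-/- and B6 arrays overlapped, and both vitamin E arrays lay under them. Loxl1 was 1.39-fold lower in vitamin E than in untreated ApoE-/- aortas (log2 difference −0.48, SE 0.07, adjusted p = 0.0041) and 1.37-fold lower than in B6 aortas (log2 difference −0.46, SE 0.07, adjusted p = 0.0015). Both calls held in all 17 limma refits. Untreated ApoE-/- and B6 aortas had a log2 difference of 0.02, with a 95% interval from −0.13 to 0.17.

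**Figure D2:**
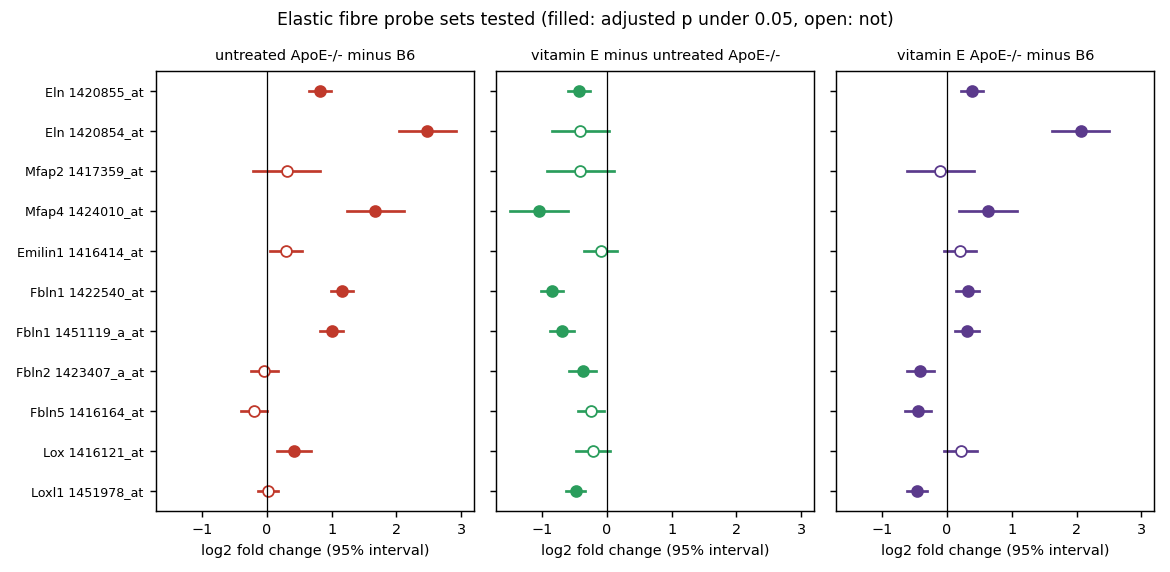
Log2 difference (points) with its 95% interval (lines) for the 11 elastic fibre probe sets tested, in untreated ApoE-/- minus B6, vitamin E minus untreated ApoE-/-, and vitamin E minus B6 aortas. Filled points passed at an adjusted p under 0.05. The intervals of both Eln and both Fbln1 probe sets and of Mfap4 lie above 0 in the left and right panels, and all 11 points lie under 0 in the middle panel.

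By the strongest probe set of each in the main fit, the 9 genes fell into 4 patterns of order. Eln, Fbln1 and Mfap4 had the order untreated ApoE-/- over vitamin E over B6 aortas, with each step called. Fbln2 and Loxl1 were lowest in vitamin E aortas, and their untreated ApoE-/- and B6 levels did not differ beyond the spread. Lox and Fbln5 differed only between their highest and lowest group, which were untreated ApoE-/- over B6 aortas for Lox and B6 over vitamin E aortas for Fbln5. Mfap2 and Emilin1 had no called difference. The weaker Emilin1 probe set, left out by the filter and near the floor in B6 aortas, had higher signals in both ApoE-/- groups.

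Other proteins of the microfibril and of the elastin surface were measured as a list of 24 genes, of which 20 were tested. In untreated ApoE-/- versus B6 aortas 6 were higher and 2 lower, a share of 40.0% called beside 41.9% of all genes tested, with a median log2 difference of 0.12. Adamtsl2, 1 of the 6 higher (log2 difference 0.92, adjusted p = 0.022), passed the filter only through the untreated ApoE-/- mean of 124. Its test thus rests on the group where it is high. Ltbp4, a latent TGF-beta-binding protein that is needed for elastic fibre assembly in mice, had a signal intensity of 744 and 795 in vitamin E, 971 and 1035 in untreated ApoE-/-, and 284 and 314 in B6 aortas. Both ApoE-/- groups lay far above B6 aortas, by 1.75 (adjusted p = 1.0e-05) and 1.37 (adjusted p = 3.6e-05) on the log2 scale for untreated and vitamin E-treated mice, and Ltbp4 was lower in vitamin E than in untreated ApoE-/- aortas (log2 difference −0.38, adjusted p = 0.023). Vitamin E versus untreated ApoE-/- aortas gave 6 calls among the 20 (30.0%, beside 15.8% of all genes), all lower, with a median of −0.29. Among these were Bgn, which encodes the proteoglycan biglycan (log2 difference −0.30, adjusted p = 0.035), Vcan, which encodes versican (−0.59, adjusted p = 0.020), Ltbp2 (−0.45, adjusted p = 0.014) and Mfap5, a second microfibril-associated glycoprotein (−0.40, adjusted p = 0.034). Bgn, Vcan and Ltbp2 had been higher in untreated ApoE-/- aortas than in B6 by 0.34, 0.44 and 0.44 on the log2 scale (adjusted p = 0.0096, 0.024 and 0.0056).

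Other lysyl oxidases and genes that activate lysyl oxidase, supply its copper or process collagen formed a further list of 13, with 9 tested. In untreated ApoE-/- versus B6 aortas, 2 were higher and 3 lower, which is 55.6% beside 41.9% of all genes. Serpinh1, the collagen chaperone HSP47, had a signal intensity of 1918 and 1994 in vitamin E, 3080 and 3127 in untreated ApoE-/-, and 2011 and 1950 in B6 aortas. It was higher in untreated ApoE-/- aortas than in B6 (log2 difference 0.65, adjusted p = 0.00020) and lower in vitamin E than in untreated ApoE-/- aortas (−0.67, adjusted p = 0.00066). Slc31a1, the copper importer CTR1, had a signal intensity of 327 and 319 in vitamin E, 296 and 330 in untreated ApoE-/-, and 679 and 702 in B6 aortas, which is lower in both ApoE-/- groups (log2 difference −1.14 in untreated mice, adjusted p = 8.0e-05). Plod2, a collagen lysyl hydroxylase, was also lower in untreated ApoE-/- aortas than in B6 (log2 difference −1.45, adjusted p = 2.2e-05). Pcolce, an enhancer of the protease BMP1 that matures procollagen and lysyl oxidase, had the pattern of Loxl1, with 1615 and 1455 in vitamin E, 2148 and 2109 in untreated ApoE-/-, and 2157 and 2095 in B6 aortas (log2 difference −0.47 in vitamin E versus untreated ApoE-/- aortas, adjusted p = 0.0055). Vitamin E versus untreated ApoE-/- aortas gave 3 calls among the 9 (33.3%, beside 15.8% of all genes), all lower, with a median of −0.43.

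A list of 14 tested genes held proteases that can degrade elastin together with Glb1, Neu1 and Ctsa, whose products form the elastin receptor complex. Of the 14, 7 were higher and 1 lower in untreated ApoE-/- aortas than in B6, a share of 57.1% beside 41.9% of all genes, with a median log2 difference of 0.33. Glb1, a beta-galactosidase and not a protease, was among the 7 (log2 difference 0.37, adjusted p = 0.032) and is named after its values were seen. Mmp12, the macrophage metalloelastase, had a signal intensity of 58.5 and 56.7 in vitamin E and 118 and 99.4 in untreated ApoE-/- aortas, against 3.93 and 15.5 in B6 aortas. It passed the filter only through the untreated ApoE-/- mean of 109, so its test rests on the group where it is high. Both B6 arrays were under the floor of 20 and were set to it, so they add no spread to the test. With that floor, Mmp12 was at least 5.41-fold higher in untreated ApoE-/- aortas than in B6 (adjusted p = 0.00012). It was lower in vitamin E than in untreated ApoE-/- aortas (log2 difference −0.91, adjusted p = 0.025). Cela1, a pancreatic-type elastase, and Mmp2, a gelatinase, were higher in untreated ApoE-/- aortas than in B6 (log2 difference 0.83 and 0.45, adjusted p = 0.0027 and 0.0030) and lower in vitamin E than in untreated ApoE-/- aortas (−0.69 and −0.28, adjusted p = 0.016 and 0.045). Ctsd, which encodes the lysosomal protease cathepsin D, was higher in untreated ApoE-/- aortas than in B6 by 0.45 (adjusted p = 0.0013) and had a log2 difference of −0.22 in vitamin E versus untreated ApoE-/- aortas (adjusted p = 0.056). Other proteases had other patterns. Prtn3, which encodes the neutrophil protease proteinase 3, had a signal intensity of 39.4 and 65.1 in vitamin E, 42.6 and 21.0 in untreated ApoE-/-, and 140 and 127 in B6 aortas. It passed the filter only through the B6 mean of 134. Prtn3 was the 1 gene called lower in untreated ApoE-/- aortas than in B6 (log2 difference −2.16, adjusted p = 0.0034). Its log2 difference of 0.76 in vitamin E versus untreated ApoE-/- aortas did not pass (adjusted p = 0.21). Ctsl, which encodes cathepsin L, was highest in vitamin E aortas, with log2 differences of 0.33 in untreated ApoE-/- versus B6 aortas (adjusted p = 0.0081) and 0.54 in vitamin E versus B6 aortas (adjusted p = 0.00095). Ctsb, which encodes cathepsin B, was not called in any comparison. The vitamin E comparison with untreated ApoE-/- aortas gave 3 calls among these 14 genes (21.4%, beside 15.8% of all genes), all lower.

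Among 8 tested genes for protease inhibitors, Timp1, an inhibitor of metalloproteinases, had a signal intensity of 117 and 132 in vitamin E, 220 and 191 in untreated ApoE-/-, and 71.8 and 64.5 in B6 aortas. It followed the order of Eln and Fbln1, with log2 differences of 1.59 in untreated ApoE-/- versus B6 aortas (adjusted p = 0.00024) and −0.72 in vitamin E versus untreated ApoE-/- aortas (adjusted p = 0.021). Timp4, another of these inhibitors, had the opposite order, with 580 and 560 in vitamin E, 468 and 461 in untreated ApoE-/-, and 981 and 926 in B6 aortas (log2 difference −1.04 in untreated ApoE-/- versus B6 aortas, adjusted p = 4.7e-05). Over the list, 1 gene was higher and 4 lower in untreated ApoE-/- aortas than in B6 (62.5%, beside 41.9% of all genes), and 3 were higher and 2 lower in vitamin E than in untreated ApoE-/- aortas (62.5%, beside 15.8% of all genes).

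TGF-beta is a growth factor that stimulates matrix synthesis and is stored on microfibrils. Of 12 tested genes for its ligands, receptors, Smad signal transducers, targets and the latent binding protein Ltbp1, 2 were higher and 4 lower in untreated ApoE-/- aortas than in B6, or 6 of 12 beside 41.9% of all genes. The 2 higher ones were Tgfb1, a ligand, and Smad2 (log2 difference 0.66, adjusted p = 0.010). Tgfb1 had a signal intensity of 505 and 566 in vitamin E, 509 and 548 in untreated ApoE-/-, and 143 and 184 in B6 aortas, and was higher in untreated ApoE-/- aortas than in B6 (log2 difference 1.70, adjusted p = 9.4e-05). The ligand gene Tgfb2 (log2 difference −0.63, adjusted p = 0.021), the receptor genes Tgfbr2 and Tgfbr3 (−0.28 and −0.49, adjusted p = 0.022 and 0.0058) and Smad4 (−0.35, adjusted p = 0.0033) were lower in the same comparison. In vitamin E versus untreated ApoE-/- aortas, limma called 0 of these 12 genes, beside 15.8% of all genes. Among the 12, 5 had an unadjusted p under 0.05 in limma, beside 3387 of all 10650 genes tested. The methods' t-test called 0 of all probe sets after Benjamini-Hochberg adjustment in this comparison. The log2 difference of Tgfb1 was 0.02 there.

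**Figure D3:**
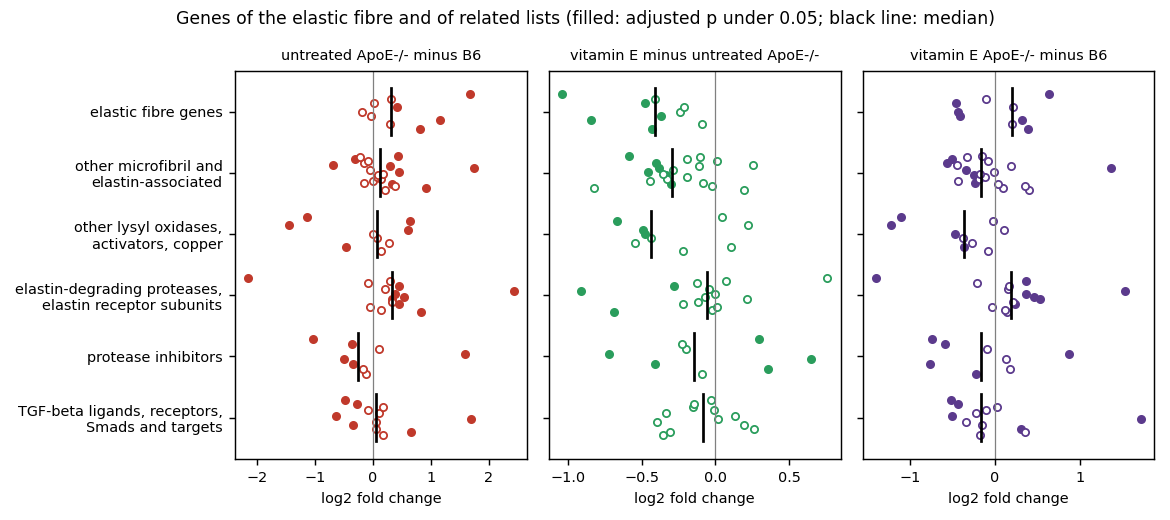
Log2 difference of each gene tested (points, filled at an adjusted p under 0.05) in the elastic fibre genes and 5 related lists, with the median of each list as a black line, for the 3 comparisons. The x axes differ between panels. The median of the elastic fibre genes is 0.31, −0.41 and 0.20, and in the middle panel the called genes of the first 4 lists all lie under 0.

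The summed signal of the 9 elastic fibre genes was 3820 and 4113 in vitamin E, 5494 and 5396 in untreated ApoE-/-, and 4387 and 4246 in B6 aortas. The summed signal of 12 markers of contractile smooth muscle, such as Acta2, Tagln and Itga8, was 20585 and 21448 in vitamin E, 22857 and 23581 in untreated ApoE-/-, and 24126 and 24896 in B6 aortas. It was thus lowest in vitamin E aortas, as Fbln5 was, and highest in B6 aortas. Of these 12 markers, 2 were higher and 2 lower in untreated ApoE-/- aortas than in B6 (33.3%, beside 41.9% of all genes). In vitamin E versus untreated ApoE-/- aortas, 1 was higher and 5 lower (50%, beside 15.8% of all genes). The sum of 13 markers of adventitial fibroblasts ranged from 32049 to 35778 in vitamin E, from 36383 to 37385 in untreated ApoE-/- and from 36371 to 36376 in B6 aortas. Of these 13, 4 were higher and 2 lower in untreated ApoE-/- aortas than in B6 (46.2%, beside 41.9% of all genes). Their median log2 difference was 0.00058. In vitamin E versus untreated ApoE-/- aortas, 4 were lower (30.8%, beside 15.8% of all genes). Col1a1, a collagen chain with the largest called change of this list, was 1.61 higher on the log2 scale in untreated ApoE-/- aortas than in B6 (adjusted p = 8.7e-06). It was 0.72 lower in vitamin E than in untreated ApoE-/- aortas (adjusted p = 0.0011).

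Markers of other cells also differed between the groups. All 12 cardiac muscle markers were higher in untreated ApoE-/- aortas than in B6 (beside 41.9% of all genes called). In vitamin E versus untreated ApoE-/- aortas, 11 were lower (91.7%, beside 15.8% of all genes). Cardiac sums were 39564 and 43339 in vitamin E, 70994 and 71399 in untreated ApoE-/-, and 38978 and 38342 in B6 aortas. Of 10 macrophage markers, 8 were higher in untreated ApoE-/- aortas than in B6 (80%, beside 41.9% of all genes). Only 1, C1qa, was lower in vitamin E than in untreated ApoE-/- aortas (10%, beside 15.8% of all genes). Their sums were 16983 and 17090 in vitamin E, 18751 and 18739 in untreated ApoE-/-, and 12435 and 12334 in B6 aortas. The cardiac and macrophage sums, like Eln, Fbln1, Mfap4 and Lox, were highest in untreated ApoE-/- aortas and lowest in B6 aortas. The part of these cells in the values of Eln, Fbln1, Mfap4 and Lox was not tested. The 12 endothelial markers summed to 4334 and 4723 in vitamin E, 5122 and 5048 in untreated ApoE-/-, and 4926 and 4704 in B6 aortas. Markers of skeletal muscle (34110 to 34177) and of stratified epithelium (19054 to 19097) had their lowest sums in untreated ApoE-/- aortas. Thymocyte and T cell markers summed to 11641 and 11122 in vitamin E, 7133 and 8183 in untreated ApoE-/-, and 3530 and 3483 in B6 aortas.

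Lung markers had the lowest sums in vitamin E aortas, as had Fbln2, Fbln5 and Loxl1. Their 8 genes tested summed to 12293 and 12726 in vitamin E, 15172 and 15703 in untreated ApoE-/-, and 19022 and 19529 in B6 aortas. Most of this sum was Scgb1a1 (mean signal 11001), which was not called in vitamin E versus untreated ApoE-/- aortas, so the sum hides changes of weaker markers. Of these 8, 6 were lower in vitamin E than in untreated ApoE-/- aortas (75%, beside 15.8% of all genes), with a median log2 difference of −1.69. In untreated ApoE-/- versus B6 aortas, 5 were lower (62.5%, beside 41.9% of all genes). In vitamin E versus B6 aortas, 7 were lower (87.5%, beside 42.8% of all genes). Sftpc, which encodes surfactant protein C of alveolar cells, had a signal intensity of 95.6 and 103 in vitamin E, 1402 and 1427 in untreated ApoE-/-, and 3074 and 3132 in B6 aortas. The part of lung tissue in the values of Fbln2, Fbln5 and Loxl1 was not tested. The 10 adipocyte markers summed to 49136 and 57578 in vitamin E, 53707 and 55657 in untreated ApoE-/-, and 65905 and 66384 in B6 aortas. Of these 10, 3 were lower in vitamin E than in untreated ApoE-/- aortas (30%, beside 15.8% of all genes). In untreated ApoE-/- versus B6 aortas, 2 were higher and 5 lower (70%, beside 41.9% of all genes). The 8 foam cell markers, of which Mmp12 is one, summed to 18779 and 19958 in vitamin E, 18716 and 19007 in untreated ApoE-/-, and 19229 and 19257 in B6 aortas. Most of this sum was Fabp5 (mean signal 10815), which was not called, so it hides changes of weaker markers. In untreated ApoE-/- versus B6 aortas, 4 were higher, such as Gpnmb (log2 difference 1.49), and 1 lower, Cd36 (−0.33). That is 62.5%, beside 41.9% of all genes. In vitamin E versus untreated ApoE-/- aortas, 1 was lower (12.5%, beside 15.8% of all genes).

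**Figure D4:**
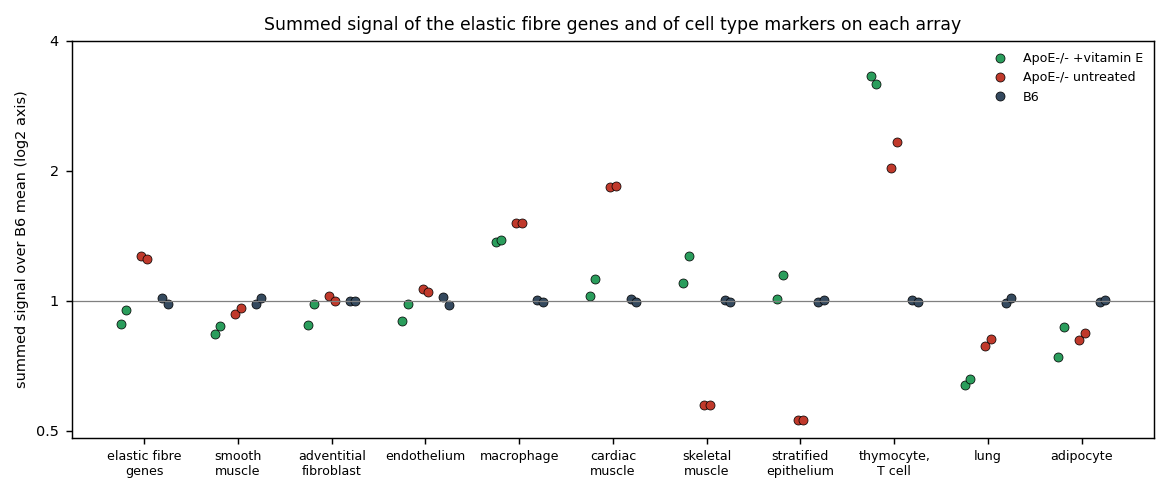
Summed signal intensity of the elastic fibre genes and of 10 lists of tissue and cell type markers on each array, divided by the mean of the B6 arrays (log2 axis). Green, red and dark points are vitamin E, untreated ApoE-/- and B6 arrays. Elastic fibre genes lie at 0.885 and 0.953 in vitamin E and at 1.27 and 1.25 in untreated ApoE-/- aortas, and cardiac muscle markers at 1.02 and 1.12 in vitamin E and at 1.84 and 1.85 in untreated ApoE-/- aortas. Lung markers, most of whose sum is Scgb1a1, lie at 0.638 and 0.66 in vitamin E and at 0.787 and 0.815 in untreated ApoE-/- aortas.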

How the data were processed

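Affymetrix GeneChip MG430 2.0 arrays were hybridized with aortic RNA. The signal intensity values deposited by the authors had been scaled per array with GCOS to a common target, on a linear scale. Present calls were not used. Of 45101 probe sets, 34945 had 1 gene symbol, 932 several and 9160 none by the annotation of the array, and 64 were controls. Signals under 20 were set to 20 and log2-transformed, and 17909 probe sets with a group mean of 100 or more in any group were fitted with limma 3.58.1 in R 4.3.3, with 1 mean per group and variances moderated along an intensity trend (residual degrees of freedom 3, prior 4.46). Adjusted p values were computed over all probe sets tested. The procedure was tested on simulated data. Members and lists were chosen with earlier results of these data known. From the other lists, the 3 genes with the highest mean signal intensity could be named, with the 3 called genes of largest change in untreated ApoE-/- versus B6 and in vitamin E versus untreated ApoE-/- aortas. As alternatives, quantile normalization or median centring, a floor of 50 or none, other filters, no trend, only the compared groups, a block for the replicate number, fits without each array, 1 value per gene, and the methods' t-test and thresholds were used. Vitamin E arrays were deposited apart from the others, so that batch and treatment cannot be told apart. The series design describes the arrays of a group as biological replicates.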

Additional observations from a re-analysis of the deposited data

How the results depend on the processing

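Over the 33 values of elastic fibre probe sets, 502 of 546 recomputed values kept their direction and side of the threshold, 30 were no longer called, 9 were newly called and 5 changed sign. The last were Loxl1 in untreated ApoE-/- versus B6 aortas, with a log2 difference of −0.024 after median centring and a range of −0.034 to 0.074 when each array was left out, Fbln2 in the same comparison (−0.0763 to 0.0023), Emilin1 in vitamin E versus untreated ApoE-/- aortas (−0.19 to 0.0022) and Mfap2 in vitamin E versus B6 aortas (−0.45 to 0.25). The marker genes Krt4, Acta1 and Myh1 changed sign in vitamin E versus B6 aortas, with ranges of −0.23 to 0.15, −0.18 to 0.27 and −0.13 to 0.18. The cause was not tested. Comparisons follow in the order untreated ApoE-/- versus B6, vitamin E versus untreated ApoE-/-, and vitamin E versus B6 aortas. Probe sets called numbered 7305, 2777 and 7368, but 4494, 949 and 4464 without the filter, where more probe sets were tested, and 4606, 1828 and 4758 with 1 probe set per gene, where fewer were. With only the compared groups fitted, 1700 were called in the second comparison. With each array left out, the counts ranged from 4326 to 8777, 817 to 3506 and 4332 to 7470, with the lowest counts without an untreated ApoE-/- array in the second comparison and without a B6 array in the others. Elastic fibre genes called numbered 4, 5 and 6, with ranges of 3 to 6, 2 to 6 and 3 to 6 when each array was left out, and 2 in the second comparison without the filter. At the thresholds of the methods (p of at most 0.01, at least 2-fold, signal intensity of at least 100), limma gave 1304, 376 and 1131 probe sets and 2, 1 and 0 elastic fibre genes. The methods' t-test gave 768, 179 and 582 probe sets on log2 and 773, 177 and 585 on linear values, with 1, 0 and 0 elastic fibre genes on both, and 5, 4 and 4 of them at an unadjusted p under 0.05. The share of all genes at that unadjusted p was not counted for this test, so the last counts are not read as a result. After Benjamini-Hochberg adjustment, it called 2156, 0 and 67 probe sets on log2 and 2166, 0 and 76 on linear values, and 2, 0 and 0 elastic fibre genes on both. The deviations of same-numbered arrays correlated by −0.098 to 0.055 between groups, so the numbers were not taken as pairs. With the replicate block, 6887, 2185 and 6991 probe sets and 4, 4 and 6 elastic fibre genes were called, and the call lost was that of Fbln2. Probe sets near the floor, such as the second of Eln, have sizes that depend on it. The number of arrays limits the precision.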

Other observations

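Elastic fibre probe sets that were too dim to be tested are given here as values. A further Fbln1 probe set, 1439688_at, had a signal intensity of 36.8 and 40.6 in vitamin E, 46.0 and 69.7 in untreated ApoE-/-, and 30.45 and 24.96 in B6 aortas, the same order of means as the stronger Fbln1 probe sets. A second Lox probe set, 1448228_at, had 47.1 and 46.7 in vitamin E, 73.6 and 55.7 in untreated ApoE-/-, and 31.6 and 50.7 in B6 aortas. A second Loxl1 probe set, 1436063_at, had 72.3 and 57.7 in vitamin E, 95.7 and 82.6 in untreated ApoE-/-, and 96.1 and 71.8 in B6 aortas, again with the lowest mean in vitamin E aortas. The second Mfap2 probe set, 1447833_x_at, stayed between 46.0 and 56.0 on all 6 arrays. The remaining ones, 1438375_at of Fbln2 and 1437903_at of Lox, were under 20 on all 6 arrays, and 1446377_at of Fbln5 was under 20 on all but 1, vitamin E replicate 2 (29.6).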
